A study of Mus musculus with 9 samples.

Results

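The genes that encode the CDK inhibitors (the CIP/KIP genes Cdkn1a, Cdkn1b and Cdkn1c and the INK4 genes Cdkn2a, Cdkn2b, Cdkn2c and Cdkn2d) were followed in tumors of the INS-p25OE mouse model of pancreatic neuroendocrine tumors (PanNETs) and in normal mouse islets. They were chosen as the complete pair of inhibitor families by name, 7 of the 54347 genes listed, and all 7 were among the 15532 genes with enough reads to be tested. With all 9 libraries as labelled, none of the 7 passed adjustment across all genes in tumors against islets. The library labelled NI1 was nearest to the tumor library M6. Without NI1, which leaves NI2 and NI3 as the islets, Cdkn2a, Cdkn2c and Cdkn1a were higher in tumors. The changes were 5.53, 2.84 and 2.09 on the log2 scale. In that fit 5.34% of all genes were higher, whereas 0 genes were called higher with all 9 libraries. Cdkn1b had the lowest p between functional and non-functional tumors, at 161 to 198 against 93.2 to 132 CPM, a difference that did not pass adjustment. CPM are counts scaled to the library's total after that total was multiplied by the library's TMM factor, unless library totals alone are named.

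Entry into the cell cycle is driven by cyclin-dependent kinases, which phosphorylate the retinoblastoma protein and so release E2F transcription factors. The INK4 proteins bind Cdk4 and Cdk6 and keep them from their D-type cyclins, whereas the CIP/KIP proteins bind assembled cyclin-kinase complexes and chiefly block Cdk2. In pancreatic beta cells p18Ink4c and p27Kip1 are known as brakes on proliferation whose genes depend on menin, and p16Ink4a as a protein that accumulates with age under relief of polycomb repression.

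The tumors came from INS-p25OE mice on a C57BL/6 background, which carry both Ins2-rtTA and tetOp-p25GFP. The insulin promoter directs the doxycycline-dependent activator to beta cells, where it turns on p25GFP, an activating fragment of the Cdk5 partner p35, and doxycycline was given in the drinking water from weaning. M1, M2 and M3 were the functional tumors (their titles name raised hormone as Inulin, read here as insulin) and M4, M5 and M6 the non-functional ones, with M2 from a female and the other 8 libraries from males. NI1, NI2 and NI3 were labelled as normal islets of C57BL/6 mice, and the labels state neither their age nor whether islets of several animals were pooled. Libraries were of bulk tissue, in which fewer cells of a type and less RNA per cell cannot be told apart. Nothing in the labels ties the libraries of a group to separate animals beyond their separate tumors or samples, so the p-values measure the spread between these libraries.

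Each library held between 36468280 and 63637175 estimated reads, and 3 reads, taken as the floor, stood for 0.0425 to 0.119 CPM. Cdk5r1, the gene for p35, from which the p25 of the transgene is cut, lay between 149 and 401 CPM in tumors, at 18.4 and 12.5 CPM in NI2 and NI3 and at 280 CPM in NI1, a level like that of the tumors. Whether reads of the transgene were counted under Cdk5r1 was not tested. Of the 36 pairs of libraries, NI1 and M6 were the nearest, and M6 held between 0.927 and 1.23 times the CPM of NI1 for the 7 members. Each member's change in tumors against islets is therefore given with and without NI1, and the counts of members also without NI1 and M6. In M4, mitochondrial genes took 32.1% of the reads, against 1.76% to 8.41% elsewhere. Summed markers of beta, acinar, lymphoid and macrophage cells separated the tumors from the islet libraries. Sums of the fibroblast, ductal, neuroendocrine, endothelial, pericyte and smooth muscle, Schwann, erythrocyte, and alpha, delta and PP cell markers overlapped between them. The summed level of 10 beta cell genes was 18883 to 117230 CPM in tumors against 122391 to 365735 CPM in islet libraries. Most of that sum was Ins1, Ins2 and Iapp. At an unadjusted p under 0.05 by edgeR, 3 of the 10 were lower and 1, Pdx1, was higher. Of all 15532 genes tested, 1419 were lower and 1655 higher by that measure. Nkx6-1 and Mafa changed by 0.14 and 0.06 on the log2 scale. Acinar genes summed to 0.0806 to 197 CPM against 284 to 5200 CPM, lymphoid genes to 5.92 to 96.4 CPM against 123 to 136 CPM and fibroblast genes to 108 to 2123 CPM against 125 to 191 CPM. Macrophage genes summed to 417 to 1160 CPM against 178 to 391 CPM, and 15 genes of the response to tissue dissociation to 279 to 465 CPM against 974 to 3422 CPM. Their part in the results below was not tested.

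The CDK inhibitor genes lie at 6 places in the genome. Cdkn2a (ENSMUSG00000044303) occupies chromosome 4 of GRCm38 from 89274471 to 89294653 and Cdkn2b (ENSMUSG00000073802) from 89306299 to 89311039, both on the minus strand with 11645 bp between them. Cdkn2c (ENSMUSG00000028551) lies farther along chromosome 4, from 109660876 to 109667189. Cdkn2d (ENSMUSG00000096472) lies on chromosome 9 from 21288410 to 21291407, Cdkn1a (ENSMUSG00000023067) on chromosome 17 from 29090976 to 29100727, Cdkn1b (ENSMUSG00000003031) on chromosome 6 from 134920401 to 134925513 and Cdkn1c (ENSMUSG00000037664) on chromosome 7 from 143458339 to 143461050.

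Cdkn1a and Cdkn2a spanned the widest ranges among the tumors. The 250 bases before annotated starts of both are therefore shown, from the RefSeq promoter table of GRCm38.p6. For Cdkn1a only the upstream start is shown. Cdkn1a is a textbook target of p53, with response elements upstream of its main start. Capitals in the first sequence mark the union of the p53 element matches, that is, pairs of the 10-base half-site with at most 1 mismatch in all and up to 13 bases between them. Cdkn2a has 2 starts, of which the upstream one begins the p19Arf transcript and the inner one the p16Ink4a transcript. Capitals in its upstream sequence mark the E2F word.
Cdkn1a upstream start, chr17:29090729-29090978, plus strand: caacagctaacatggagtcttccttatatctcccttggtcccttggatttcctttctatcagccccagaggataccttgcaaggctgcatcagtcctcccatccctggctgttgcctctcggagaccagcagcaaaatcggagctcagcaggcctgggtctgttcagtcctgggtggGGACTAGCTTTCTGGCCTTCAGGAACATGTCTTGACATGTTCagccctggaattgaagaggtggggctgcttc
Cdkn2a upstream start, chr4:89294620-89294869, minus strand: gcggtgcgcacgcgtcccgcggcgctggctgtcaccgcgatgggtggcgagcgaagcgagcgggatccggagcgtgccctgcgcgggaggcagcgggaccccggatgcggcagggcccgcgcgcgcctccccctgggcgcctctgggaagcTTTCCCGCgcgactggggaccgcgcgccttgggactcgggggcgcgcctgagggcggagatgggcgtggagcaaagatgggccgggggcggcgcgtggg
Cdkn2a inner start, chr4:89282193-89282442, minus strand: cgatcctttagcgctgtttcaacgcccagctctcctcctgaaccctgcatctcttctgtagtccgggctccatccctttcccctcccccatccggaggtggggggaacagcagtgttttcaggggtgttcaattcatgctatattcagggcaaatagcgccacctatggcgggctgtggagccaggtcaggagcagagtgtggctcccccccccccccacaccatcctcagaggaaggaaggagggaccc

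In the first sequence 2 overlapping matches covered the bases from 73 to 32 before the start, and 1 of them had no mismatch. Such an element with at most 1 mismatch stood in 0.898% of 32851 windows of this length before annotated starts, and one without a mismatch in 0.0639%. No other window of the members held an element with at most 1 mismatch, including that before the inner Cdkn1a start (chr17:29093519-29093768). The E2F words TTTCCCGC, TTTCGCGC, TTTGCCGC and TTTGGCGC were searched on both strands, and 1.86% of the windows held any of them. Among the 9 windows of the 6 members in the table, the only E2F word was the one 99 bases before the upstream Cdkn2a start, whose window was 78.4% G and C against a median of 52.4% for all windows. A match is a description of the letters and not of binding. Deposited values are given per gene, so p19Arf and p16Ink4a reads cannot be separated. The transcripts share 575 exonic bases, 67.5% of the one and 64.2% of the other.

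Cdkn1a encodes p21Cip1, the inhibitor through which p53 arrests the cycle. M1, M2 and M3, the functional tumors, held 144, 262 and 139 CPM, whereas the non-functional M4, M5 and M6 held 122, 160 and 51.1 CPM. In the islet libraries NI1, NI2 and NI3 it was 41.6, 35.6 and 33.2 CPM. All 6 tumors lay above all 3 islet libraries, with M2 the highest and M6 near the islets. The mean was 146 CPM ± 68.3 (SD, n = 6) in tumors and 36.8 CPM ± 4.33 (SD, n = 3) in islets. The log2 fold change was 1.99 (SE 0.42, Benjamini-Hochberg adjusted p = 0.119 in the quasi-likelihood test of edgeR, which gave every test unless another is named). The unadjusted p was 0.00074. Without NI1 the change was 2.09 (SE 0.52, adjusted p = 0.0415), without M6 it was 2.17 (adjusted p = 0.0154), and without both libraries it was 2.27 (adjusted p = 0.00985).

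Cdkn1b encodes p27Kip1, a brake on Cdk2 that is removed by Skp2-directed degradation and so is regulated in large part as a protein. Its level was 161, 168 and 198 CPM in the functional tumors, 97.5, 93.2 and 132 CPM in the non-functional tumors and 126, 93.1 and 88.8 CPM in NI1, NI2 and NI3. All functional tumors lay above every other library, while non-functional tumors and islet libraries overlapped. Across all tumors the change against islets was 0.47 on the log2 scale (SE 0.27, adjusted p = 0.356), and without NI1 it was 0.64 (adjusted p = 0.227).

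Cdkn1c encodes p57Kip2, the CIP/KIP member expressed from the maternal allele of an imprinted domain. It was the least abundant of the 7 in tumors, though Cdkn2a was lower in NI2 and NI3. It stood at 2.34, 2.42 and 3.54 CPM in functional tumors, 5.71, 3.86 and 4.93 CPM in non-functional tumors and 5.31, 2.27 and 4.01 CPM in the islet libraries. Every functional tumor lay below every non-functional tumor, and the islets spanned nearly the whole range. The change in tumors against islets was -0.03 (SE 0.42, adjusted p = 0.979), and it was 0.27 without NI1 (adjusted p = 0.762).

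Cdkn2a encodes p16Ink4a, an inhibitor of Cdk4 and Cdk6, and from another reading frame p19Arf, which stabilizes p53 by binding Mdm2. Its level was 34.6, 6.78 and 54.6 CPM in the functional tumors and 29.8, 63.7 and 11.9 CPM in the non-functional tumors. It was 11.6 CPM in NI1 but 0.903 and 0.545 CPM in NI2 and NI3, from 37 and 22 reads. All 6 tumors lay above NI2 and NI3, and M2 was the tumor that fell below NI1. The highest tumor held 9.39 times the level of the lowest, the widest range of the 7. With all libraries the change was 2.94 (SE 1.08, adjusted p = 0.191, unadjusted p = 0.0210). Without NI1 it was 5.53 (SE 1.04, adjusted p = 0.0160), and without NI1 and M6 it was 5.70 (adjusted p = 0.0126). The mean of the tumors was 46.3 times that of NI2 and NI3, and 7.71 times that of the 3 islet libraries.

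Cdkn2b encodes p15Ink4b, the INK4 protein induced by TGF-beta. It stood at 9.85, 8.51 and 11.4 CPM in functional tumors, at 14.9, 14.1 and 6.65 CPM in non-functional tumors and at 5.98, 8.49 and 8.15 CPM in NI1, NI2 and NI3. Except for M6, the tumors lay above the islets, although M2 and NI2 were level. The change was 0.53 (SE 0.31, adjusted p = 0.363), and 0.39 without NI1 (adjusted p = 0.521). Its neighbor Cdkn2a had the larger fitted change in both fits, and the difference between the genes was not tested.

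Cdkn2c encodes p18Ink4c, a menin-dependent inhibitor of Cdk4 and Cdk6 whose gene is also activated by E2F. It lay at 93.8, 108.6 and 129 CPM in functional tumors and at 80.3, 122 and 87.1 CPM in non-functional tumors. The library labelled NI1 held 77.8 CPM, and NI2 and NI3 held 18.5 and 10.5 CPM. All 6 tumors lay above all islet libraries, NI1 came just under the lowest tumor, and the tumors differed among themselves by at most 1.61 times, the narrowest range of the 7. The change was 1.54 with all libraries (SE 0.54, adjusted p = 0.182, unadjusted p = 0.0170). Without NI1 it was 2.84 (SE 0.32, adjusted p = 0.00292), and without NI1 and M6 it was 2.88 (adjusted p = 0.00457).

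Cdkn2d encodes p19Ink4d, the INK4 protein whose level changes with the phase of the cell cycle. Its level was 25.4, 29.5 and 36.4 CPM in functional tumors, 21.4, 58.4 and 19.6 CPM in non-functional tumors and 19.6, 17.8 and 13.5 CPM in NI1, NI2 and NI3. M5 stood above the rest, and M6 and NI1 were level at the boundary of the groups. The change was 0.91 (SE 0.35, adjusted p = 0.206, unadjusted p = 0.0268), and without NI1 it was 1.02 (adjusted p = 0.164).

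**Figure D1:**
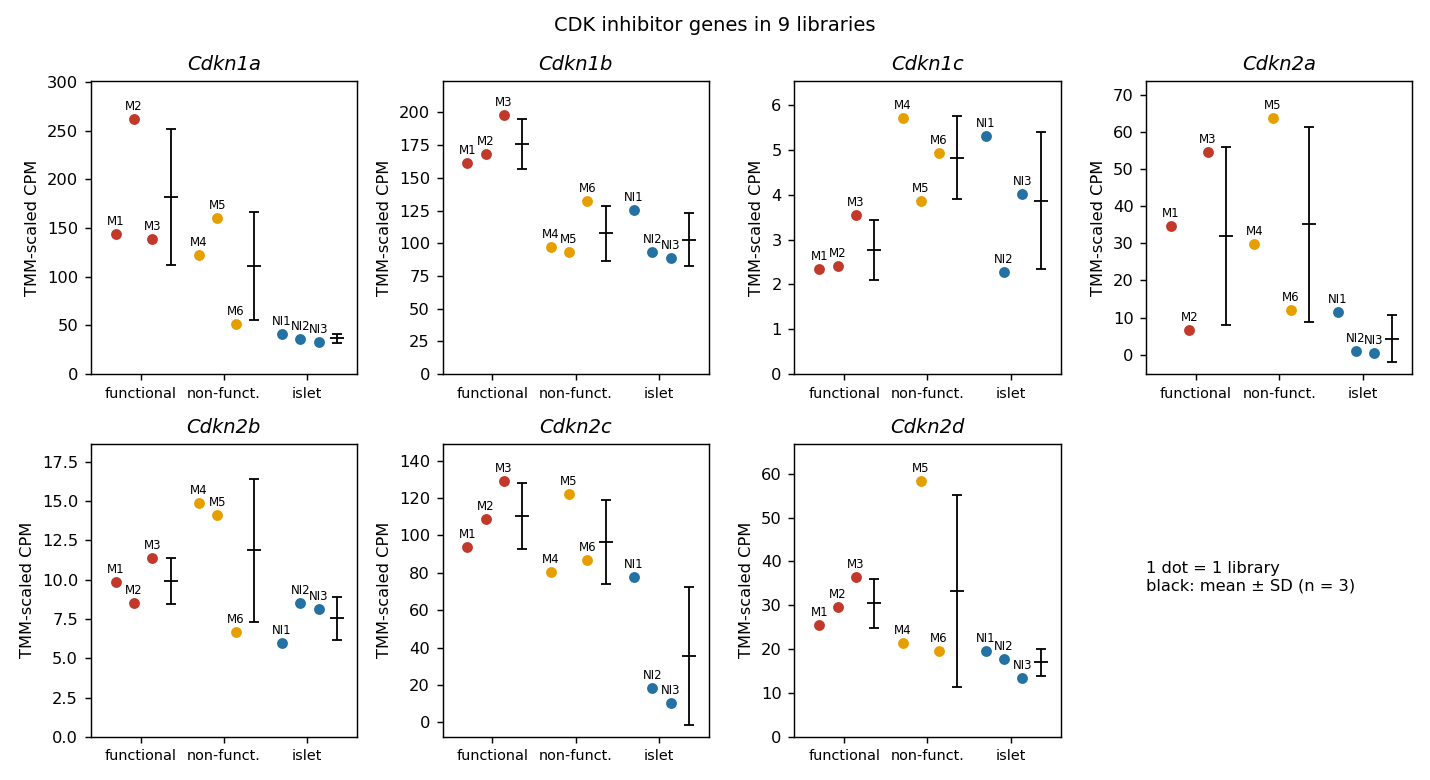
TMM-scaled CPM (vertical axis, from 0 or just below it) of each CDK inhibitor gene in functional tumors, non-functional tumors and islet libraries, where each dot is a library and the black bar is the mean ± SD of 3 libraries. NI1 lies with the tumors for Cdkn2c at 77.8 CPM, and M1, M2 and M3 stand above all other libraries for Cdkn1b.

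Counted over the 7 members with all 9 libraries, 0 passed an adjusted p of 0.05 in either direction, against 0.258% of all genes tested. Those genes were all lower in tumors, 40 of 15532, and 0 genes were called higher. A count of 0 members higher in this fit is therefore that of all genes. At an unadjusted p under 0.05, 4 were higher (Cdkn1a, Cdkn2a, Cdkn2c and Cdkn2d) against a background of 10.7%. In 2 of the 7 (Cdkn1a and Cdkn2c) every tumor exceeded every islet library, against 4.50% of genes. Without NI1, 3 of 7 were higher (Cdkn1a, Cdkn2a and Cdkn2c) against 5.34%, and without NI1 and M6 the count was also 3, against 5.75%. Leaving out M6 alone gave 1 (Cdkn1a) against 0.522%. DESeq2 on all 9 libraries called 2 higher (Cdkn1a with an adjusted p of 7.36e-05 and Cdkn2c with 0.0322) against 4.92%, and without NI1 it called 3 against 12.3%. The median of all genes was 0.03 on the log2 scale with all libraries and 0.05 without NI1.

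**Figure D2:**
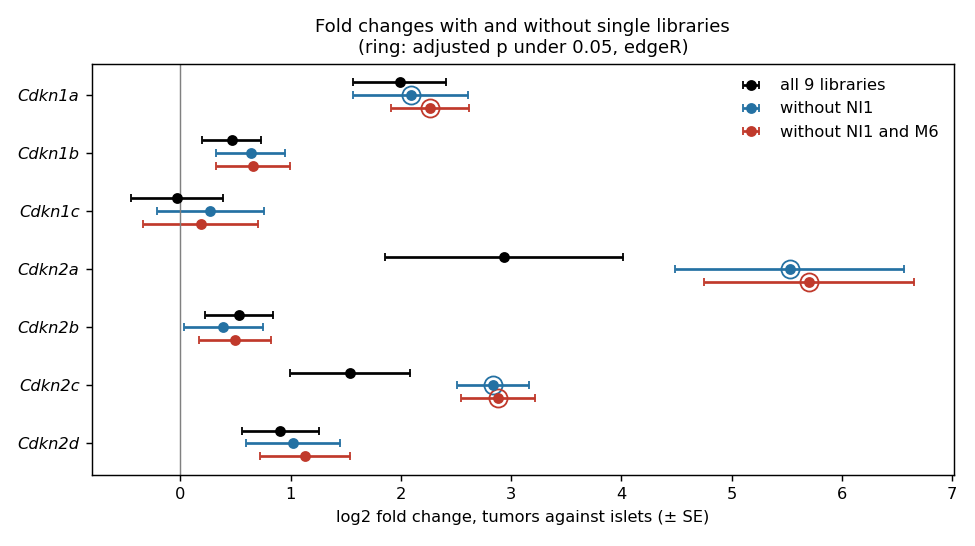
Log2 fold change of tumors against islets ± SE (horizontal axis) for each gene, fitted on all 9 libraries (black), without NI1 (blue) and without NI1 and M6 (red), with a ring where the adjusted p from edgeR was under 0.05. Cdkn2a moves from 2.94 to 5.53 and Cdkn2c from 1.54 to 2.84 when NI1 is left out, while Cdkn1a stays near 2.

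Against the islets, functional and non-functional tumors were also fitted apart. With all libraries 0 of 7 members passed in functional tumors, where 0.476% of genes did, and 0 passed in non-functional tumors, where 0% did. At an unadjusted p under 0.05 there were 4 in functional tumors (Cdkn1a, Cdkn1b, Cdkn2a and Cdkn2c) against 11.3% of genes higher, and 4 in non-functional tumors (Cdkn1a, Cdkn2a, Cdkn2c and Cdkn2d) against 8.27%. DESeq2 called 2 in functional tumors (Cdkn1a and Cdkn1b) against 4.99%, and 1 in non-functional tumors (Cdkn1a, adjusted p = 0.0129) against 1.56%. In functional tumors Cdkn1a came nearest, with a change of 2.30 (SE 0.42, adjusted p = 0.0587), followed by Cdkn1b at 0.78 (SE 0.21, adjusted p = 0.121). Without NI1, 4 members were higher in functional tumors, against 5.15% of genes. These were Cdkn2a at 5.46 (adjusted p = 0.0263), Cdkn2c at 2.93 (adjusted p = 0.00466), Cdkn1a at 2.40 (adjusted p = 0.0295) and Cdkn1b at 0.95 (adjusted p = 0.0403). Without NI1, 2 members were higher in non-functional tumors, against 2.90% of genes, namely Cdkn2a at 5.59 (adjusted p = 0.0375) and Cdkn2c at 2.74 (adjusted p = 0.00945). There Cdkn1a had a change of 1.69 (adjusted p = 0.0900) and Cdkn1b one of 0.24 (adjusted p = 0.533). Without NI1 and M6 the functional count in either direction was also 4, against 9.37% of genes, and the non-functional count was 3, against 6.94%, because Cdkn1a then passed at 2.04 (adjusted p = 0.0287). These comparisons share their islet libraries.

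Compared directly, functional and non-functional tumors had their lowest p in Cdkn1b and their largest log2 difference in Cdkn1c. The Cdkn1b mean was 175.8 CPM ± 19.4 (SD, n = 3) against 107.5 CPM ± 21.2 (SD, n = 3), a ratio of 1.63 and a log2 difference of 0.71 (SE 0.21, adjusted p = 0.455, unadjusted p = 0.00875). It was the 1 member of 7 at an unadjusted p under 0.05, against 10.3% of genes in either direction. Cdkn1c differed the other way, with means of 2.77 CPM ± 0.675 and 4.83 CPM ± 0.929 (SD, n = 3 each) and a difference of -0.80 (SE 0.43, adjusted p = 0.540). The groups did not overlap for these 2 of 7 members, whereas 15.0% of all genes were separated in this way. For Cdkn1a the difference was 0.71 (SE 0.40, adjusted p = 0.561), with M5 above M1 and M3. The differences of the 4 INK4 genes lay between -0.26 and 0.19, with adjusted p between 0.822 and 0.978, and the SE ran up to 1.12, for Cdkn2a. Acinar genes summed to at most 0.255 CPM in functional tumors and to at least 18.8 CPM in non-functional tumors, which moved with the same grouping. Their part in the Cdkn1b and Cdkn1c values was not tested.

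To compare genes with each other, CPM were divided by the summed length of each gene's exons. On this scale the mean level in tumors ran from Cdkn1a at 41.2 ± 19.2 CPM per kb through Cdkn2c at 38.5 ± 7.32, Cdkn1b at 31.1 ± 9.14, Cdkn2a at 28.6 ± 19.3, Cdkn2d at 20.2 ± 9.12 and Cdkn2b at 7.84 ± 2.31 to Cdkn1c at 1.86 ± 0.659 CPM per kb (SD, n = 6). The first 5 neighbors in that order lie within each other's spread. Cdkn2b had the next lower mean, but its spread overlaps that of Cdkn2a, which it exceeded in M2 (6.12 against 5.78 CPM per kb), and Cdkn1c was the lowest in every tumor. In islets Cdkn1b led at 22.5 ± 4.44 CPM per kb (SD, n = 3) and Cdkn1c had the lowest mean, at 1.90 ± 0.749 CPM per kb. That place rests on NI1, since Cdkn2a was at 9.90 CPM per kb there but at 0.770 and 0.465 CPM per kb in NI2 and NI3, below Cdkn1c at 1.11 and 1.97 CPM per kb. Dividing by the longest transcript instead raised Cdkn1a in tumors to 70.3 CPM per kb and exchanged the places of Cdkn1b and Cdkn2a.

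The summed INK4 level per length was 87.7, 71.1 and 126 CPM per kb in functional tumors, 79.6, 147 and 59.8 CPM per kb in non-functional tumors and 55.6, 25.1 and 18.8 CPM per kb in NI1, NI2 and NI3. All tumors exceeded the islet libraries, with M6 and NI1 next to each other. The make-up of the sum differed as well. Cdkn2d made up 45.1% and 45.6% of it in NI2 and NI3 but 17.1% to 26.4% in tumors, and Cdkn2a made up 3.07% and 2.47% in those islets but 8.14% to 37.0% in tumors. Cdkn2c was 31.0% to 56.9% of the sum in tumors, 52.1% in NI1 and 27.5% and 20.8% in NI2 and NI3. Set against its targets, the INK4 sum was 2.74, 1.33 and 2.88 times the sum of Cdk4 and Cdk6 per length in functional tumors, 2.51, 3.05 and 1.40 times in non-functional tumors, 1.42 times in NI1 and 0.830 and 0.612 times in NI2 and NI3. M2 and M6 thus fell just below NI1 in this ratio of transcripts, which says nothing of protein. The INK4 sum holds all Cdkn2a reads, any of p19Arf among them, which binds Mdm2. What part of the sum and the ratio these make up cannot be told. Among CIP/KIP genes Cdkn1a held 27.9% to 31.7% of the summed level in islet libraries, 31.4% in M6 and 46.3% to 66.8% in the other 5 tumors.

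**Figure D3:**
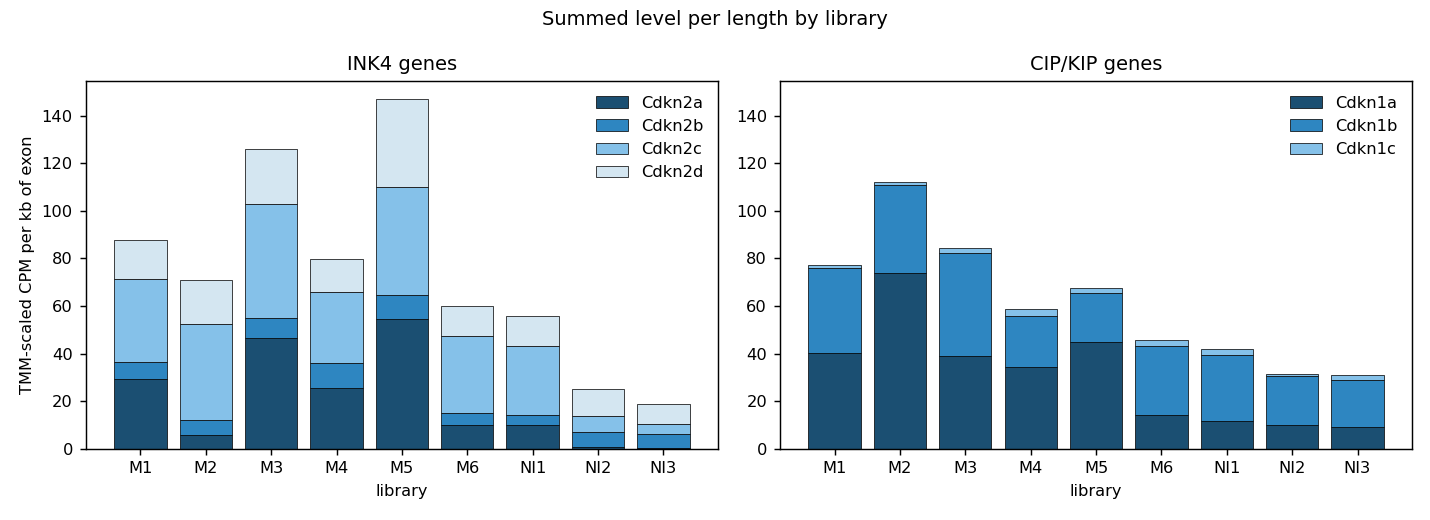
Stacked TMM-scaled CPM per kb of exon (vertical axis) of the INK4 genes (left) and the CIP/KIP genes (right) in each of the 9 libraries. The INK4 sum is between 59.8 and 147 in tumors, 55.6 in NI1 and 25.1 and 18.8 in NI2 and NI3, and Cdkn1c forms the thin top segment on the right.

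The genes around the inhibitors in the cell cycle pathway were read from lists drawn up by role. Of 14 proliferation genes, 0 passed adjustment with all libraries, where 0 of all 15532 genes were called higher. At an unadjusted p under 0.05, 12 were higher, against 10.7% of genes. Past adjustment without NI1, 12 were higher, where 5.34% of all genes were higher and 3.17% lower. The median change was 1.50 with all libraries and 2.38 without NI1. The list's sum came to 1485, 1601 and 1935 CPM in the functional tumors, to 1069, 1325 and 1166 CPM in the non-functional tumors and to 1040, 288 and 173 CPM in NI1, NI2 and NI3. Cdkn2c ran in a similar order of libraries, with r = 0.992 over 9 libraries and 0.788 over the 6 tumors on log2 levels. M5 broke that order, above M1 and M2 in Cdkn2c (122 against 93.8 and 108.6 CPM) but below them in the sum. Over the 9 libraries, NI2 and NI3 stand apart from the other 7. These r values are descriptions over libraries that share their scaling. For Cdkn2a the r with the same sum was 0.863 over 9 libraries but 0.149 over the tumors, and for Cdkn1b it was 0.831 over the tumors.

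Of the kinases and cyclins the inhibitors act on, 1 of 5 D-type cyclins and their kinases passed with all libraries. It was Ccnd2, the main D-type cyclin of beta cells, which fell by 3.81 on the log2 scale (SE 0.62, adjusted p = 0.0446), from 110, 655 and 822 CPM in NI1, NI2 and NI3 to 17.4 to 72.6 CPM in tumors. Without NI1 it fell by 4.29 (adjusted p = 0.00319). None of the 4 tested E-type and A-type cyclins and Cdk2 passed with all libraries, and 3 of 4 were higher without NI1, namely Cdk2 at 2.32 (adjusted p = 0.00743), Ccna2 at 2.17 and Ccne2 at 2.36 (adjusted p = 0.0416 and 0.00754). Of the 4 mitotic genes (Ccnb1, Ccnb2, Cdk1 and its activator Cdc25c) 0 passed with all libraries, at a median change of 1.95, and 4 were higher without NI1, at a median of 2.77. Of 13 retinoblastoma and E2F genes, 0 passed with all libraries, and 7 were higher and 1 lower without NI1, the lower one E2f5 at -1.01 (adjusted p = 0.0347) and the higher ones including the E2F repressors E2f7 at 3.44 (adjusted p = 0.0151) and E2f8 at 2.83 (adjusted p = 0.0320). Of 6 activators of the kinases, 0 passed in either fit, with 1 in each direction at an unadjusted p under 0.05 with all libraries. By that measure 1655 of the 15532 genes tested were higher and 1419 lower.

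Regulators of single inhibitors were read in the same way, and none of these lists had a member past adjustment with all libraries. At an unadjusted p under 0.05 in that fit, 1655 of the 15532 genes tested were higher and 1419 lower. The unadjusted counts below are to be read beside that background. Skp2, which marks p27Kip1 for degradation, had a change of 2.84 without NI1 (adjusted p = 0.0106) and its cofactor family member Cks2 one of 2.53 (adjusted p = 0.0269), the 2 of 8 p27 turnover genes that were then higher. Of 8 menin and MLL complex genes, 0 passed in either fit and 1 was higher at an unadjusted p under 0.05 with all libraries. Men1, the menin gene, which was named for its role after its value was seen, was at 37.3 to 55.8 CPM in tumors and 49.8, 64.5 and 63.0 CPM in the islet libraries, a change of -0.31 (SE 0.17, adjusted p = 0.339), and -0.42 without NI1 (adjusted p = 0.194). Of 14 polycomb genes, which repress Cdkn2a, 2 were higher without NI1, namely Ezh2 at 2.48 (adjusted p = 0.00591) and Cbx2 at 1.85 (adjusted p = 0.0123). At an unadjusted p under 0.05 with all libraries, 2 were higher and 1 lower. The lower one was Bmi1, at -0.80 (adjusted p = 0.152), and -0.88 without NI1 (adjusted p = 0.0694). Of 10 TGF-beta pathway genes 0 passed in either fit, with 1 in each direction at an unadjusted p under 0.05 with all libraries, and of 10 FoxO and Myc regulators 0 passed, with 1 lower by that measure.

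Among 8 tested p53 regulators 2 were higher without NI1 (Chek2 at 2.25, adjusted p = 0.0262, and Chek1 at 2.48, adjusted p = 0.0157). Among 15 p53 target genes other than Cdkn1a, 0 passed with all libraries, and 2 were higher and 1 lower without NI1. The higher ones were Eda2r, a death receptor gene, at 4.50 (adjusted p = 0.0298) and Phlda3, an inhibitor of Akt, at 2.33 (adjusted p = 0.0156), and the lower one was Btg2, an antiproliferative gene, at -1.62 (adjusted p = 0.00783). Btg2 is also 1 of the 15 dissociation response genes, of which 12 were lower without NI1. The summed level of the list was 500 to 1036 CPM in tumors and 526 to 827 CPM in islet libraries, so the groups overlapped. On log2 levels Cdkn1a had an r of 0.878 with this sum over the 6 tumors, and of 0.591 over all 9 libraries. Among the tumors M2 was the highest and M6 the lowest on both.

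**Figure D4:**
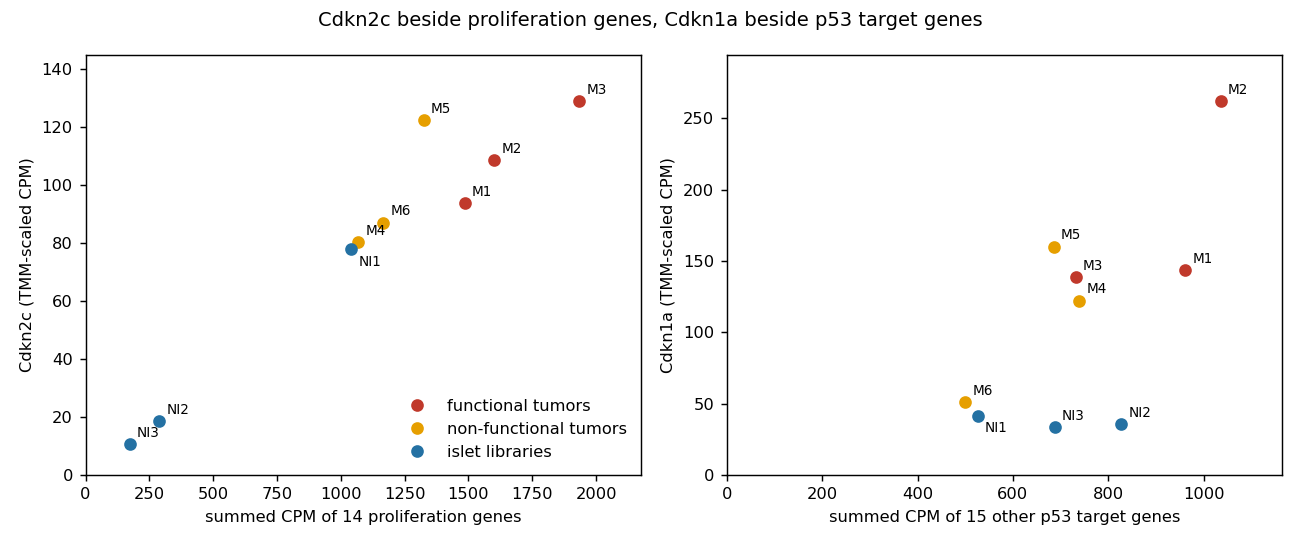
TMM-scaled CPM of Cdkn2c against the summed CPM of 14 proliferation genes (left) and of Cdkn1a against the summed CPM of 15 other p53 target genes (right), with a dot for each library. On the left the 9 libraries line up from NI3 at 173 to M3 at 1935 CPM, and on the right islet libraries and tumors overlap on the horizontal axis only.

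Neighbors on the chromosome were read for the imprinted and the INK4 locus. Of 8 tested imprinted genes beside Cdkn1c, 0 passed with all libraries and 1, the potassium channel gene Kcnq1, was higher without NI1, at 2.65 (adjusted p = 0.0336). The largest change of the list with all libraries was that of H19, at 3.18 (adjusted p = 0.163), and 3.79 without NI1 (adjusted p = 0.0937). H19 was low, at 0.334 to 5.03 CPM in tumors. The growth factor gene Igf2 ran from 2.29 CPM in M2 to 830 CPM in M6, was 695 CPM in NI1 and 9.37 and 11.3 CPM in NI2 and NI3, and did not pass in either fit. Beside Cdkn2a and Cdkn2b, Mtap had a change of -0.29 (adjusted p = 0.410), and -0.38 without NI1 (adjusted p = 0.283). Elavl2 had one of 1.05 (adjusted p = 0.481), and 2.47 without NI1, so neither of the 2 tested neighbors passed in either fit.

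By the correlation of log2 levels over the 9 libraries, the genes most like each inhibitor were named. Cdkn2c was nearest to Chaf1b, a subunit of the chromatin assembly factor of S phase, with r = 0.998 over 9 libraries and 0.976 over the 6 tumors, and to Tcf19 with r = 0.997 and 0.983. Cdkn2a was nearest to Katnal2 with r = 0.992 and 0.966, and Cdkn1a to Map3k20, a stress-activated kinase gene, with r = 0.987 and 0.973. For Cdkn1b the nearest was Lin54, a subunit of the DREAM complex, with r = 0.980 over 9 libraries and 0.980 over the tumors. Cdkn2d was nearest to Cdkn3, a phosphatase of Cdk1 and Cdk2 despite its name, with r = 0.966 and 0.992, Cdkn2b to Ecm1 with 0.955 and 0.962, and Cdkn1c to 1110017D15Rik with 0.924 and 0.942. These genes were picked as the highest r among 15532, and no test was made. Among the members themselves the closest pair in tumors was Cdkn2c and Cdkn2d, with r = 0.857 over the 6 tumors and 0.734 over 9 libraries.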

How the data were processed

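RNA-seq of 9 libraries was read from the table the authors deposited, which holds estimated counts per gene (whole numbers, unscaled) although it is named TPM. Per the labels and the methods, a non-directional kit was sequenced as single-end reads, trimmed with Trimmomatic 0.38 and quantified with Salmon 1.4.0 on mm10. The way transcript estimates became gene values is not given in the sources used here. Without strand, reads of Cdkn1a and Cdkn1c cannot be told from those of the overlapping AC167363.2 and Gm44732, which held at most 4 and 1 reads.

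Symbols and positions came from GENCODE for GRCm38 (54094 identifiers matched, and the 253 others held 0.0121% of counts). Genes reaching 1 CPM in 3 or more libraries were scaled by TMM and tested with edgeR 4.0.16 in R 4.3.3. Tumors as 1 group were set against islets, and a fit of 3 groups gave the other contrasts. P-values were two-sided and adjusted by the Benjamini-Hochberg method over 15532 genes. The SE is the log2 fold change divided by the square root of F. Alternatives were DESeq2 1.42.0, limma 3.58.1, other scalings and filters, a replicate block and each library left out. Leaving out NI1 and M6 together, and DESeq2 without NI1, were added after the data were seen. The fit without NI1 was planned with earlier results of these data known, which had put NI1 at tumor level. Its calls are therefore not independent of these data. Scripts were checked on simulated counts.

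The members and all gene lists were chosen with earlier results of these data known. Named list genes came from those past the threshold with all libraries (at most 3 a list) and the 2 largest changes in each list. Several genes among the largest changes are not named. Those past the threshold without NI1, where 5 or fewer in a list and direction were, were chosen after their values were seen. Men1 and Bmi1 were named outside these rules. Of the 3 most alike genes per member the text gives the first, or 2, by Pearson's r of log2(CPM + 1). Promoter windows exclude bases after the start, and Cdkn1c had no entry.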

Additional observations from a re-analysis of the deposited data

Results flagged for a closer look

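Cdkn1c differed in direction between the tumor groups. All 3 functional tumors lay below the mean log level of the islet libraries and all 3 non-functional tumors above it, and the log2 difference between functional and non-functional tumors was -0.80 (edgeR's quasi-likelihood test, unadjusted p = 0.0920, adjusted p = 0.540). The level was 2.34 to 3.54 CPM against 3.86 to 5.71 CPM, and the islet libraries ran from 2.27 to 5.31 CPM. The position against the islets rests on NI1, since M3 at 3.54 CPM lay above the mean of NI2 and NI3 of 3.14 CPM. The change of functional tumors against islets was -0.48 with all libraries and -0.18 without NI1, neither past adjustment by edgeR, while the difference between the tumor groups was also -0.80 without NI1 (edgeR, adjusted p = 0.505). None of the 7 members had a single tumor far from the other 5 by Dixon's test.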

How the results depend on the processing

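With all 9 libraries the number of the 7 members higher in tumors than islets was 0. It was 2 by DESeq2, 0 to 3 with 1 library left out (1 without M6, 3 without NI1), 3 without NI1 and M6, 3 by DESeq2 without NI1 and 4 at an unadjusted p under 0.05. The shares of all genes in these settings stand beside the same counts above. For functional tumors against islets it was 1 without a filter, 1 with library totals alone, 1 by limma, 2 by DESeq2, 0 to 4 with 1 library left out and 4 without NI1 and M6 or by DESeq2 without NI1. All genes called higher there numbered 192 of 31582 without a filter. Of 15532, they numbered 36 with library totals alone, 27 by limma, 775 by DESeq2 and 0 to 800 with 1 library left out. They numbered 913 without NI1 and M6 and 1769 by DESeq2 without NI1, so these counts have unlike backgrounds. For non-functional tumors it was 1 by DESeq2, 0 to 2 with 1 library left out and 3 without NI1 and M6 or by DESeq2 without NI1. All genes called higher there numbered 242 by DESeq2 and 0 to 451 with 1 library left out. They numbered 777 without NI1 and M6 and 1648 by DESeq2 without NI1, each of 15532. Between the tumor groups it was 0 in every setting.

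Cdkn1c in tumors against islets was 0.088 with library totals alone, 0.18 without NI1 and M6, 0.28 by DESeq2 without NI1, 0.32 in non-functional tumors alone and -0.30 to 0.27 with 1 library left out. Cdkn1b in non-functional tumors was -0.11 to 0.24 with 1 library left out. Between the tumor groups, library totals alone gave 0.24 for Cdkn2a, 0.14 for Cdkn2b and 0.17 for Cdkn2d, and limma gave 0.053 for Cdkn2d. With 1 library left out Cdkn2a ran from -0.77 to 0.58 and Cdkn2d from -0.39 to 0.54. Library totals alone moved the median of all genes to 0.25 for tumors against islets and to 0.32 between the tumor groups. The causes were not tested.

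The replicate numbers did not pair the libraries (correlations of -0.0516, 0.0300 and -0.159 between deviations). No islet library shares a replicate number with M4, M5 or M6. A fit with a replicate block therefore takes its changes from M1, M2 and M3 against NI1, NI2 and NI3 alone. In that fit 0 members passed, Cdkn1a had a change of 2.24 (adjusted p = 0.0649 by edgeR) and Cdkn2c one of 2.19 (adjusted p = 0.254).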
